A study of Mus musculus with 63 samples.

Results

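Left ventricles of nontransgenic mice at postnatal day 21 (P21) were compared with nontransgenic hearts of postnatal day 1 (P1) by RNA sequencing, using the 9 libraries of those ages that were prepared together, of 63 libraries in the series. The members are the 3 P21 libraries that were made a second time alongside the P1 libraries (called A, B and C here, in the order of their title numbers) and all 6 P1 nontransgenic libraries (D to I, likewise). The 3 P21 libraries share the same leading title number, which no P1 library carries. Within P1, library D has another leading title number than E to I. The labels do not say what these numbers mean. Both groups carry none of the transgenes of the study, are on the FVB/N strain background and had no treatment that the labels name. The labels give the P21 tissue as left ventricle and the P1 tissue as whole heart, while the protocol common to all samples speaks of the apex of the ventricles. Age, the labelled tissue and the leading title number therefore change together and cannot be told apart, and sex is not given. The wider study also holds tet-off control hearts and hearts that overexpress human mitofusin 2 in a normal or a mutated form, with ages P1, P21 and 5 weeks. Each library carries its own title number, but nothing says whether the hearts of either age came from separate litters. The p-values therefore measure the spread between these libraries.

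The mouse heart is remodelled in the weeks after birth. Cardiomyocytes stop dividing and grow by enlargement, fetal forms of contractile and metabolic proteins are replaced by adult ones, and energy supply moves from glucose and lactate towards fatty acids as mitochondria fill the cell. Thyroid hormone, which rises after birth in mice, is a known driver of part of this switch, and PINK1, Parkin and mitofusin 2 act in the removal of mitochondria by mitophagy.

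Total counts were 9143149 to 12522780 per P21 library and 7147271 to 12380233 per P1 library. Counts of the 9 libraries, together with those of 4 hearts of 5 weeks from the same preparation, were fitted with edgeR. A gene was called when its adjusted p (Benjamini-Hochberg over all genes tested) was under 0.05. Levels are CPM, counts scaled to a common library size after TMM scaling, P21 values follow the order A, B and C, and P1 values are the lowest and highest of 6 libraries with their median. Fold changes are log2, P21 over P1, with a standard error derived from the fold change and the F statistic of its edgeR test. Bulk tissue does not separate fewer cells of a type from less RNA per cell. Of the cardiomyocyte markers the ventricular light chain Myl2 was high at both ages (10975, 8912 and 10799.5 CPM in P21, against 8266 to 12436 (median 11067) in P1). Atrial genes were also present and were highest in the P21 library B, as described with the other cell types.

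Of 13534 genes tested, 3931 (29.0%) were higher and 3863 (28.5%) lower at P21. At least 2-fold differences were called for 1406 genes higher (10.4%) and 1147 lower (8.47%). The median log2 fold change of all genes was -0.02. When libraries were scaled to their total counts, the median of all genes moved to -0.22 and the split became 2735 higher and 5623 lower. FPKM values gave 2521 higher and 5574 lower, with a median of -0.19. Lists of genes are described below by their counts and medians, to be read against those shares and medians.

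**Figure D1:**
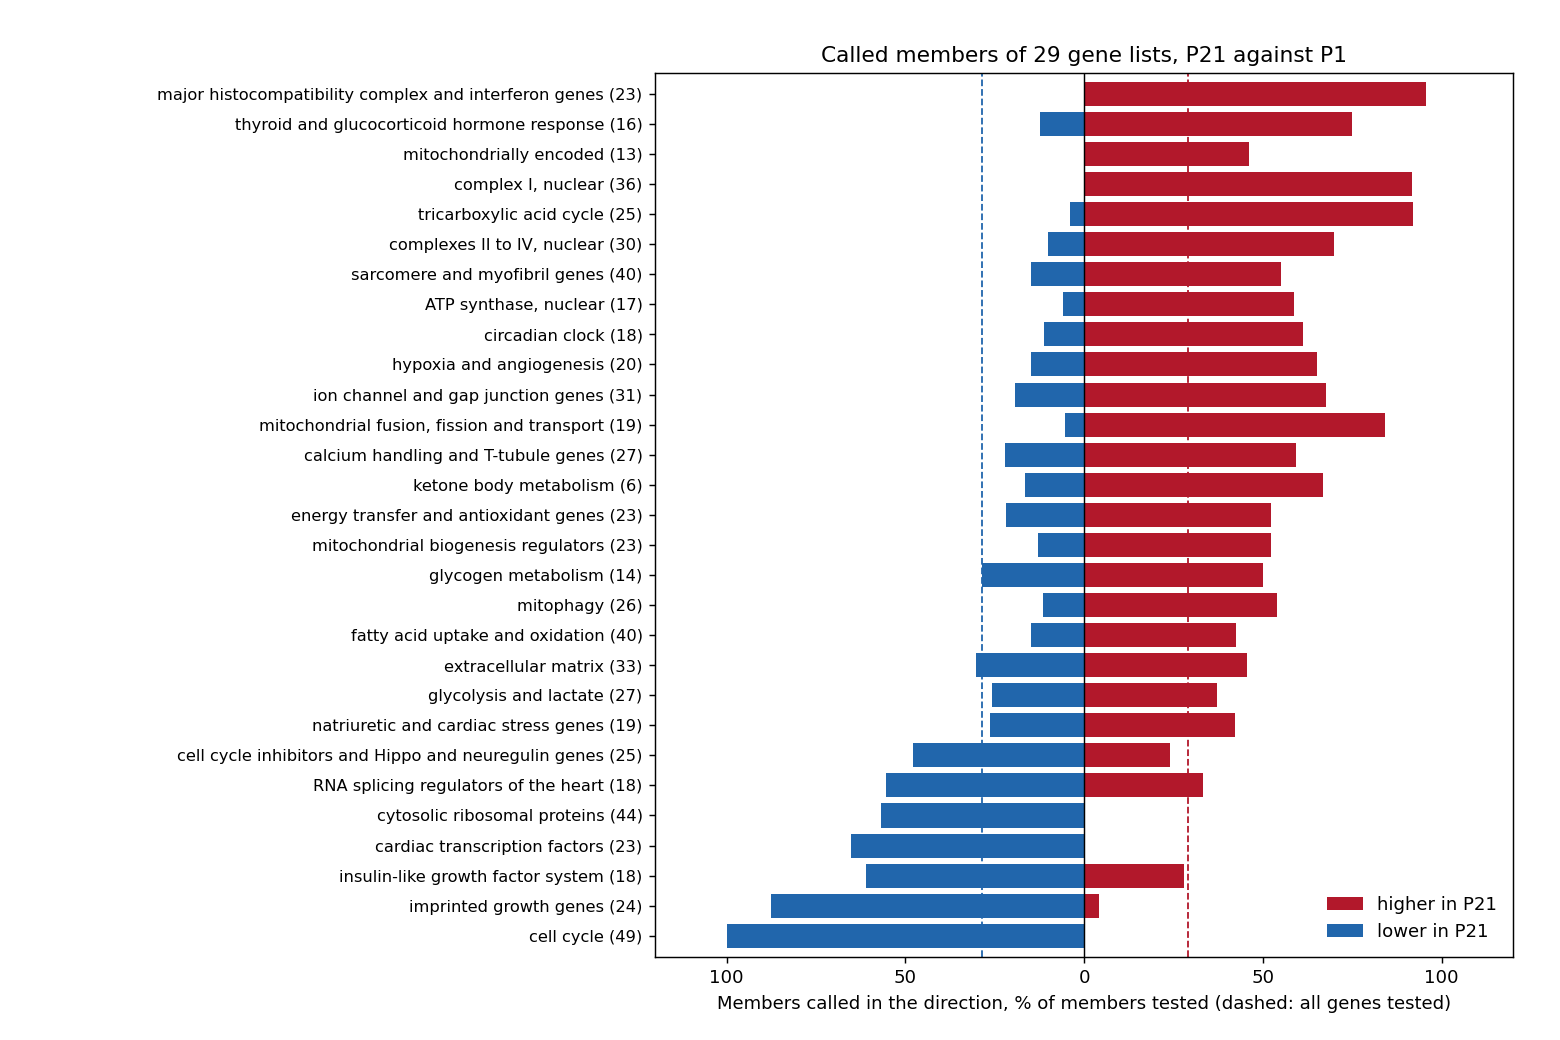
Share of the tested members of each of 29 pathway lists that were called higher (red, to the right) or lower (blue, to the left) in P21 than in P1 hearts, ordered by the list's median fold change, with the number tested in brackets. Dashed lines mark the shares of all genes tested, 29.0% higher and 28.5% lower. In the cell cycle list 49 of 49 members were lower, and in the major histocompatibility and interferon list 22 of 23 were higher.

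The genes of the cell division cycle fell together. Of the 49 members tested, 49 were lower at P21 and 44 of them at least 2-fold, with a median of -2.17. Cyclin B1 (Ccnb1), which drives entry into mitosis with Cdk1, had 4.68, 1.44 and 0.819 CPM in P21, against 17.7 to 30.6 (median 23.0) in P1, a change of -3.27 ± 0.33. The proliferation marker Mki67 had 35.4, 15.3 and 21.1 CPM in P21, against 86.2 to 136 (median 104) in P1 (-2.14 ± 0.23). Library A was the highest of the P21 libraries for both genes, and even there they stayed below every P1 library. Without library A the change of Ccnb1 was -4.31.

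The sizes of the falls within the list differed. Of the genes that act in mitosis, the phosphatase Cdc25c changed by -3.21 ± 0.33, the survivin gene Birc5 by -2.91 ± 0.23, the kinase Plk1 by -2.72 ± 0.16 and Cdk1 by -2.66 ± 0.20. Of the genes of DNA replication, the helicase subunits Mcm2 and Mcm4 changed by -1.93 ± 0.14 and -1.26 ± 0.15 and the sliding clamp Pcna by -0.76 ± 0.14. Cyclin D1 (Ccnd1), which acts in the first gap phase, had 80.9, 75.3 and 81.5 CPM in P21, against 96.9 to 118 (median 108) in P1, and its -0.43 ± 0.08 was the least negative value of the list. Cyclin E1 (Ccne1), which acts at the entry to replication, was at -2.95 ± 0.31. The part of dividing cells of other types in these values was not tested.

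Promoters of the cell cycle genes share short elements. The cell cycle homology region (core TTTGAA) and the CCAAT box are known to occur in promoters of genes expressed late in the cycle. RefSeq promoters, from 250 bases before to 50 after the start, were found for 40 of the 49 members. On either strand, TTTGAA was present in 19 of the 40 (47.5%) and in 14.3% of the promoters of 10665 tested genes. CCAAT was present in 77.5% against 42.6%, and both together in 18 of the 40 (45.0%) against 7.01%. Neither motif contains the other. Not every chromosome was used in choosing promoters to show. Shown here are the 3 promoters with both elements, on the chromosomes used, that belong to the members with the greatest falls. Every TTTGAA and CCAAT (or its complement) is in capitals.
Cdc20: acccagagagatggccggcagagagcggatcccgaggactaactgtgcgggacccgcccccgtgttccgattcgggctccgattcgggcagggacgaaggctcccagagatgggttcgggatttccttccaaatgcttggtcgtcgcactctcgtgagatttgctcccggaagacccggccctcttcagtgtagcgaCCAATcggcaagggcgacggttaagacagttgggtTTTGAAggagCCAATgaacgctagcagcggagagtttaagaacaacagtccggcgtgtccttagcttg
Ccnb2: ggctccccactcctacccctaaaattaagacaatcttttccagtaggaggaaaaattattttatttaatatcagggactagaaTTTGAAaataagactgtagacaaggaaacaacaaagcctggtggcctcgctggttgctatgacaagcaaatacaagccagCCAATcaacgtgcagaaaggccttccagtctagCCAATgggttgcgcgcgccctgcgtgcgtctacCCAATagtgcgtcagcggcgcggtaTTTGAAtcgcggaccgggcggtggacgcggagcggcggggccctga
Aurka: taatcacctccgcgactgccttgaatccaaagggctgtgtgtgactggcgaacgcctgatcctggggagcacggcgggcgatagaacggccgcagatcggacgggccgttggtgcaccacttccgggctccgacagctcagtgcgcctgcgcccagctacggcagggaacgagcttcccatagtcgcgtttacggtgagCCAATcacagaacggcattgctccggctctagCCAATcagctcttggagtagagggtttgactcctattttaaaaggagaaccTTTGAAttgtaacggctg
These lie at chr4:118437294-118437593 (Cdc20), chr9:70421505-70421804 (Ccnb2) and chr2:172370521-172370820 (Aurka) on the minus strand of GRCm38.p6, the assembly called mm10 in the submitters' notes. Cdc20, which activates the anaphase ubiquitin ligase, had 6.89, 3.22 and 2.81 CPM in P21, against 29.7 to 36.4 (median 32.3) in P1 (-2.88 ± 0.21). Ccnb2, a second B-type cyclin, changed by -2.77 ± 0.29, and the mitotic kinase Aurka by -2.77 ± 0.29. Without the P21 library A these were -3.62 for Ccnb2 and -3.50 for Aurka. A match describes letters in the window and does not show that a factor binds there.

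Regulators of proliferation were mixed. Of 25 cell cycle inhibitors, Hippo pathway and neuregulin genes tested, 6 rose and 12 fell (median -0.30). Among those that fell were Myc, with 6.80, 4.58 and 6.08 CPM in P21 against 15.2 to 19.8 (median 18.0) in P1 (-1.62 ± 0.18), and the neuregulin co-receptor Erbb2, with 22.1, 25.7 and 24.7 CPM in P21 against 61.4 to 78.6 (median 72.6) in P1 (-1.57 ± 0.10). Both genes were lower in each P21 library than in any P1 library. Of the retinoblastoma family, Rbl2 rose (0.80 ± 0.12), Rbl1 fell (-1.12 ± 0.18) and Rb1 rose (0.68 ± 0.20), although Rb1 was not called with total counts or FPKM. The inhibitor Cdkn1c also fell (-0.96 ± 0.15), while Cdkn1a was not called (-0.32 ± 0.17, adjusted p = 0.123). The Hippo effector Yap1 was not called either, at 88.2, 101 and 108 CPM in P21 and 79.6 to 98.2 (median 91.3) in P1, and its target Cyr61 rose (1.44 ± 0.13).

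Imprinted genes, many of which control fetal growth, were lower at P21 almost throughout the list. Of 24 tested, 21 were lower, 17 of them at least 2-fold, and 1 was higher (median -1.94). The noncoding RNA H19 had 262, 146 and 132 CPM in P21, against 3008 to 4348 (median 3563) in P1 (-4.35 ± 0.24). Its neighbour on chromosome 7, insulin-like growth factor 2 (Igf2), had 335, 283 and 291 CPM in P21, against 2074 to 2769 (median 2395) in P1 (-2.98 ± 0.14). No P21 library reached the P1 range for either gene. H19 (chr7:142575532-142578146) and Igf2 (chr7:142650768-142661035, both mm10) are expressed from opposite parental alleles, which these counts do not separate.

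Genes of the imprinted Dlk1 and Meg3 region of chromosome 12 also fell. Dlk1, a transmembrane protein of the Notch ligand family (chr12:109452823-109463336), had 1.45, 0.593 and 0.351 CPM in P21, against 33.0 to 49.9 (median 38.0) in P1 (-5.54 ± 0.25, and -6.29 without library A). Across the alternatives run the change of Dlk1 ranged from -7.47 to -3.21. The noncoding RNA Meg3 (chr12:109540996-109571729) had 77.3, 67.3 and 66.0 CPM in P21, against 201 to 247 (median 215) in P1 (-1.66 ± 0.11). The neighbouring Rtl1 (-2.66 ± 0.40, and -3.26 without library B), Rian (-1.41 ± 0.16) and Mirg (-1.76 ± 0.29) were called as well. The Peg3 gene and its neighbour Zim1 on chromosome 7 changed by -1.85 ± 0.09 and -2.30 ± 0.18. Plagl1, a zinc finger protein described in mice as a regulator of other imprinted genes, had 14.6, 16.3 and 12.3 CPM in P21, against 200.3 to 259 (median 231) in P1 (-3.99 ± 0.13). Mest (-3.58 ± 0.24), Peg10 (-3.50 ± 0.16) and Grb10, an adaptor that restrains insulin signalling (-2.02 ± 0.12), fell too. Gatm, an enzyme of creatine synthesis, was the member that rose (0.88 ± 0.13), and Sgce was not called (0.01 ± 0.12).

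Of 18 genes of the insulin-like growth factor system tested, 5 rose and 11 fell (median -1.10). The receptors Igf1r (-1.05 ± 0.09) and Igf2r (-1.54 ± 0.16) fell, as did the second ligand Igf1, with 27.1, 19.6 and 21.6 CPM in P21 against 47.3 to 55.9 (median 52.7) in P1 (-1.20 ± 0.12). The fetal mRNA-binding proteins Igf2bp1 (-5.17 ± 0.27), Igf2bp2 (-2.41 ± 0.17) and Igf2bp3 (-3.48 ± 0.17) fell. Igf2bp1 was near the limit of detection at P21, with 0.850, 0.593 and 0.234 CPM, against 18.9 to 27.7 (median 21.1) in P1. Across the alternatives run its change ranged from -6.40 to -1.84. Higher at P21 were the growth hormone receptor Ghr, at 84.2, 78.2 and 77.4 CPM against 25.3 to 38.4 (median 30.6) in P1 (1.36 ± 0.10), and the binding proteins Igfbp3 (0.75 ± 0.15), Igfbp6 (2.04 ± 0.18) and Igfbp7 (1.48 ± 0.11). The binding proteins Igfbp2 and Igfbp5 (-0.89 ± 0.18) fell. Igfbp2 had 0.170, 0 and 0.117 CPM in P21, against 0.682 to 6.33 (median 2.03) in P1, so few reads that no fold is given, and Igfbp4 was not called (0.07 ± 0.10). The insulin receptor Insr was not called (0.02 ± 0.14).

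The contractile apparatus exchanged some parts and kept others. Of 40 sarcomere and myofibril genes tested, 22 rose and 6 fell (median 0.49). Slow skeletal troponin I (Tnni1, chr1:135799421-135810989), the fetal form in heart, had 78.0, 16.7 and 8.65 CPM in P21, against 2087 to 2503 (median 2235) in P1 (-6.03 ± 0.55, adjusted p = 4.1e-08). Cardiac troponin I (Tnni3, chr7:4518308-4522443) had 6798, 5172 and 6466 CPM in P21, against 2908 to 3359.8 (median 2986) in P1 (1.02 ± 0.11). The Tnni1 values of the 3 P21 libraries are far apart, and that of library A is the highest.

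The P21 level of Tnni1 depended on the preparation. The same RNA of the 3 hearts had been sequenced before, in the P21 batch. As CPM of the total, Tnni1 was 73.2, 16.0 and 8.09 in the P1 batch and 2.05, 4.53 and 1.23 in the P21 batch, a batch difference of 3.79 ± 0.39 (log2, P1 batch over P21 batch). With all 6 P21 libraries of the P21 batch in place of the 3, the change of Tnni1 was -10.40, and without library A it was -7.46. In either preparation each of these P21 values was below every P1 value.

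The myosin heavy chains moved in opposite directions. The beta chain Myh7, the slower fetal form, had 2096, 2888 and 2324 CPM in P21, against 6324 to 11192 (median 7879) in P1 (-1.76 ± 0.17). The alpha chain Myh6 had 26166, 44605 and 33875 CPM in P21, against 14229.8 to 25578 (median 19944) in P1 (0.83 ± 0.19), and was not called with FPKM. Both pairs of groups are separate, although the highest P1 library for Myh6 came close to the lowest P21 library. These genes lie next to each other (Myh6 at chr14:54941921-54966607 and Myh7 at chr14:54970688-54994549) and are alike in sequence, so reads between them may be assigned imperfectly.

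Skeletal alpha-actin (Acta1) rose, with 483, 578 and 539 CPM in P21 against 47.1 to 78.3 (median 66.9) in P1 (3.02 ± 0.15). The cardiac form Actc1 was not called (0.28 ± 0.13, adjusted p = 0.0825) and made up the larger part of the pair per transcript length at both ages. Xirp2, an actin-binding protein of the intercalated disc, had 470.4, 411 and 432 CPM in P21, against 9.20 to 39.5 (median 14.0) in P1 (4.70 ± 0.30). Its P1 maximum belonged to library H, which held 39.5 CPM where the other P1 libraries had 9.20 to 14.3. Also higher were Lmod2, which elongates thin filaments (2.11 ± 0.13), Tpm1 (1.40 ± 0.11), Tcap, which caps titin at the Z disc (2.34 ± 0.15), and Csrp3 (1.12 ± 0.10). Cardiac Tnnt2 had 13764, 13002 and 13886 CPM in P21 and 10705 to 14915 (median 11494) in P1 and was not called, and slow Tnnt1 fell (-1.54 ± 0.11). Myl2 was not called (-0.08 ± 0.14), and titin (Ttn) was called (0.46 ± 0.16) with groups that overlap, but not with total counts, with FPKM, without library B or in a fit of the 9 libraries alone.

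**Figure D2:**
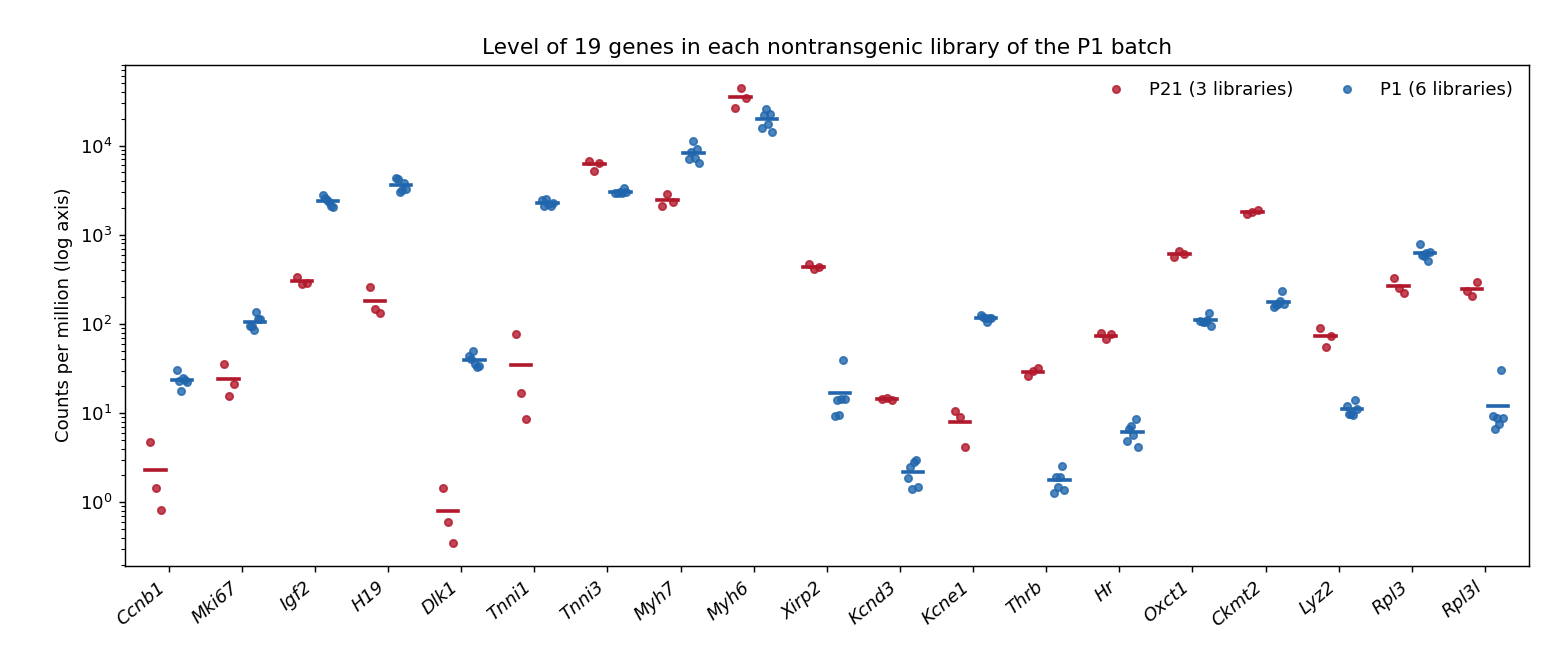
CPM (log axis) of 19 genes in each of the 3 P21 (red, left) and 6 P1 (blue, right) nontransgenic libraries of the P1 batch, with a line at the group mean. The groups are separate for the 19 genes, and the single high P1 points of Xirp2 (39.5 CPM) and Rpl3l (30.3 CPM) belong to library H.

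Exchange between related genes was measured per transcript length, as the share of the first gene in the summed FPKM of 21 pairs, with errors as SD over 3 P21 and 6 P1 libraries. In 17 pairs the 3 P21 and 6 P1 values were separate, and in 16 pairs the mean share of the first gene was lower at P21. Other pairs of genes were not examined, so these counts have no background share to be read against. Of all single genes tested, 29.0% were called higher and 28.5% lower. Of the troponin I pair, Tnni1 made up 0.376% ± 0.378 in P21 and 34.7% ± 2.39 in P1. For Myh7 beside Myh6 the share was 18.3% ± 0.770 in P21 and 36.4% ± 1.15 in P1. Counts per kilobase of exons gave 6.67% in P21 and 29.8% in P1 for that pair, so its level, but not its direction, depends on the quantification.

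The subunits of cytochrome c oxidase that have a liver and a heart form changed in this respect too. The liver form Cox6a1 made up 5.62% ± 0.297 in P21 and 30.8% ± 3.83 in P1 of the pair with heart-form Cox6a2. For Cox7a2 beside Cox7a1 it was 10.3% ± 1.20 in P21 and 35.1% ± 1.68 in P1, and for Cox8a beside Cox8b 10.1% ± 0.334 in P21 and 40.8% ± 4.57 in P1. The heart forms rose, and of the liver forms Cox6a1 and Cox8a fell (-1.40 ± 0.15 and -1.15 ± 0.14). Cox7a1 had 1764, 1426 and 1575 CPM in P21, against 205 to 459 (median 284) in P1 (2.35 ± 0.19), while Cox7a2 was not called (0.12 ± 0.22). The adenine nucleotide carrier moved likewise, with Slc25a5 at 5.58% ± 0.360 in P21 and 11.7% ± 1.04 in P1 of its pair with the heart form Slc25a4.

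Glucose handling showed the same kind of exchange. The basal transporter Slc2a1 made up 3.20% ± 0.496 in P21 and 18.2% ± 2.05 in P1 of the pair with the insulin-sensitive Slc2a4. Hexokinase 1 (Hk1) made up 45.1% ± 2.83 in P21 and 76.6% ± 2.97 in P1 of the pair with Hk2, and the lactate exporter Slc16a3 4.44% ± 0.258 in P21 and 27.8% ± 3.25 in P1 of the pair with Slc16a1. In 2 pairs the first gene gained share with separate groups, Acta1 beside Actc1 (4.31% ± 0.201 in P21 and 0.788% ± 0.157 in P1) and the skeletal calsequestrin Casq1 beside cardiac Casq2 (42.2% ± 1.59 in P21 and 13.2% ± 3.16 in P1). The pairs Myl7/Myl2, Myl4/Myl3, Ldha/Ldhb and Cacna1g/Cacna1c had groups that overlap.

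**Figure D3:**
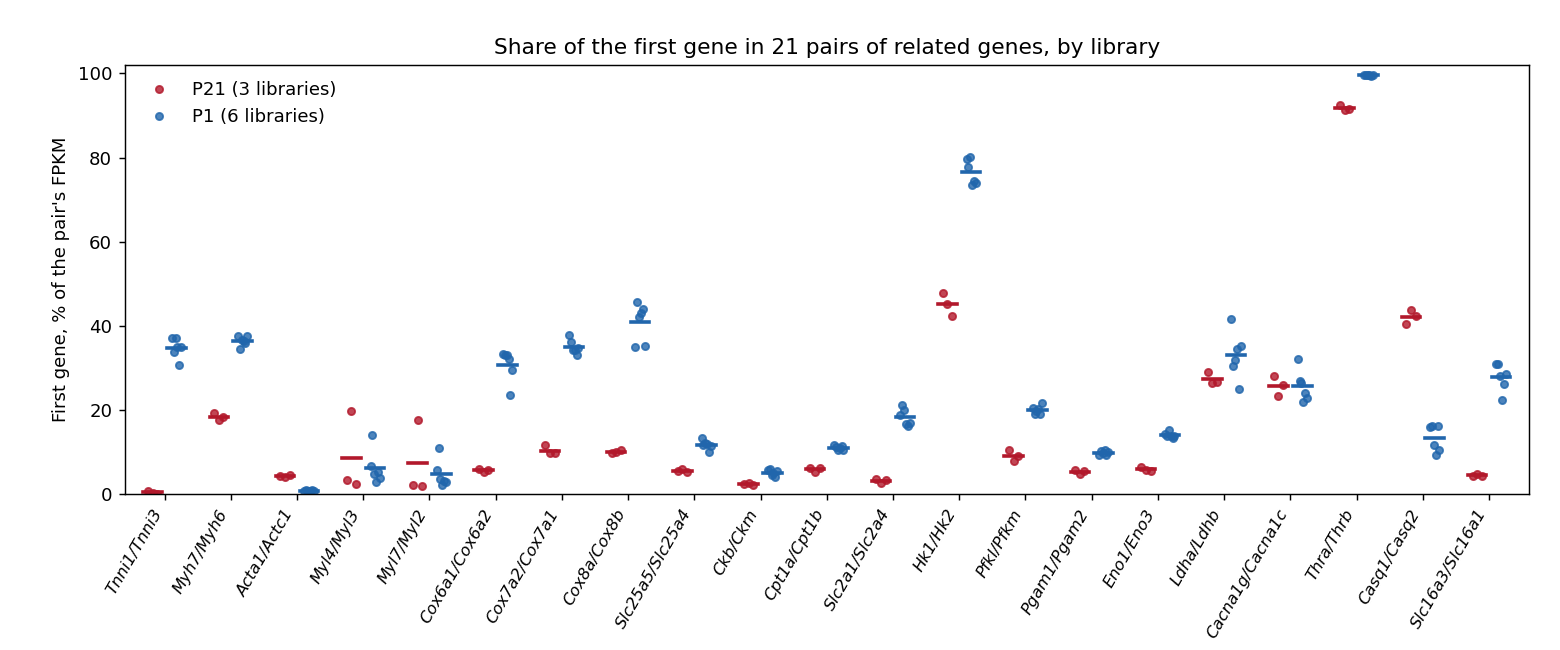
Share of the first-named gene in the summed FPKM of 21 pairs of related genes (percent), in each of 3 P21 (red, left) and 6 P1 (blue, right) libraries, with a line at the group mean. The share of Tnni1 was under 1% in each P21 library and 30.7% to 37.2% in P1, and the high P21 points of Myl4 and Myl7 (19.6% and 17.7%) belong to library B.

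Of 27 calcium handling and T-tubule genes tested, 16 rose and 6 fell (median 0.42). The calcium pump Atp2a2 had 6405, 9851 and 8387 CPM in P21, against 2759 to 4259 (median 3507) in P1 (1.25 ± 0.15). Its inhibitor phospholamban (Pln, 1.15 ± 0.12), the release channel Ryr2 (0.89 ± 0.14) and the luminal calcium-binding protein Hrc (2.21 ± 0.15) rose with it. Casq1, the skeletal calsequestrin, had 397, 509 and 441 CPM in P21, against 52.9 to 98.9 (median 80.5) in P1 (2.54 ± 0.15). Fkbp1b, a partner of the release channel, fell (-1.30 ± 0.36). The sodium-calcium exchanger Slc8a1 had 348, 416 and 304 CPM in P21, against 836 to 1047 (median 950.1) in P1 (-1.42 ± 0.12). The T-type calcium channel Cacna1h fell the most, with 4.93, 3.90 and 2.46 CPM in P21, against 44.9 to 60.2 (median 50.1) in P1 (-3.74 ± 0.19), and the L-type channel Cacna1c fell less (-0.51 ± 0.11).

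Of 31 channel and gap junction genes tested, 21 rose and 6 fell (median 0.45). Subunits of the transient outward potassium current, Kcnd3 (2.72 ± 0.18), Kcnd2 (2.40 ± 0.14) and Kcnip2 (1.05 ± 0.10), rose. Kcnv2, a silent potassium channel subunit, was close to undetected in P1, with 10.0, 6.78 and 10.5 CPM in P21, against 0 to 0.392 (median 0) in P1, so no fold is given. Kcne1, the accessory subunit of the slow delayed rectifier, had 10.6, 8.98 and 4.21 CPM in P21, against 106 to 125 (median 116) in P1 (-3.83 ± 0.17). Its partner Kcnq1 (-0.75 ± 0.11) and the rapid rectifier Kcnh2 (-0.75 ± 0.10) fell less. The gap junction proteins Gja1, at 296, 427 and 371 CPM in P21 against 498 to 634 (median 600.2) in P1, and Gjc1 fell (-0.69 ± 0.12 and -0.80 ± 0.11).

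Fuel genes did not move as a block. Of 40 genes of fatty acid uptake and oxidation, 17 rose and 6 fell. The list's median was 0.11, but -0.10 with total-count scaling and -0.11 with FPKM. Lipoprotein lipase (Lpl) had 1561, 2114 and 1902 CPM in P21, against 511 to 655 (median 568) in P1 (1.69 ± 0.12). Medium-chain acyl-CoA dehydrogenase (Acadm, 1.26 ± 0.12), Echs1 (1.28 ± 0.08) and the fatty acid transporter Cd36 (0.93 ± 0.12) rose. The fatty acid carrier Fabp3 had 5198, 4163 and 5199.9 CPM in P21 and 4151 to 6646 (median 5149) in P1, with groups that overlap and no call. The liver form of carnitine palmitoyltransferase, Cpt1a, fell (-1.20 ± 0.10). Acot1, a cytosolic thioesterase, had 4.51, 4.15 and 5.96 CPM in P21, against 30.3 to 40.1 (median 35.0) in P1 (-2.86 ± 0.16). Its near-identical paralog Acot2 also fell (-1.43 ± 0.10), and reads may be split unevenly between the pair.

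Of 6 genes of ketone body metabolism tested, 4 rose. Oxct1, the enzyme that commits ketone bodies to oxidation, had 557, 652 and 615 CPM in P21, against 95.5 to 132 (median 107) in P1 (2.47 ± 0.10). In glycolysis and lactate transport 10 of 27 genes rose and 7 fell (median 0.09, and -0.11 with total counts). Slc2a4 had 274, 426 and 369 CPM in P21, against 99.8 to 129 (median 114) in P1 (1.64 ± 0.12), and Hk2 rose (1.42 ± 0.12). The lactate exporter Slc16a3 (-2.53 ± 0.17) and Slc2a1 (-1.16 ± 0.14) fell. The aldolase Aldoc, known from brain, was nearly absent at P21, with 0.595, 0.678 and 0 CPM, against 11.1 to 16.0 (median 12.8) in P1. Gapdh was not called (-0.24 ± 0.13). In glycogen metabolism 7 of 14 genes rose and 4 fell, with the phosphorylase kinase subunit Phkg1 (3.22 ± 0.22) and the glycogen-binding protein Stbd1 (-3.55 ± 0.24) at the ends.

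Genes of the citric acid cycle and the respiratory chain rose together by modest amounts. Of 25 citric acid cycle genes 23 rose, 3 at least 2-fold, and 1 fell (median 0.65). Of 36 nuclear genes of complex I, 33 rose, 2 at least 2-fold, and 0 fell (median 0.69, 0.49 with total counts and 0.48 with FPKM). For complexes II to IV the counts were 21 higher and 3 lower of 30 (median 0.51), and for ATP synthase 10 higher and 1 lower of 17 (median 0.48). Citrate synthase (Cs) had 1434, 2028 and 1852 CPM in P21, against 853 to 1059.7 (median 929) in P1 (0.92 ± 0.11). The complex I subunit Ndufs4 had 256, 199 and 226 CPM in P21, against 87.7 to 182 (median 101) in P1 (0.95 ± 0.17). Its highest P1 value came close to the lowest P21 value, and preparation alone moved it by 0.51 ± 0.10. Ogdh of the oxoglutarate dehydrogenase complex had 1863, 2871 and 2506 CPM in P21, against 877 to 1256 (median 1035) in P1 (1.21 ± 0.14). Against the list, NADP-dependent Idh2 had 728, 937 and 921 CPM in P21, against 1430.1 to 1679 (median 1535) in P1 (-0.85 ± 0.11), and the ATP synthase inhibitor Atpif1 fell (-1.02 ± 0.17). The catalytic subunit Atp5b was not called (0.25 ± 0.11, adjusted p = 0.0646).

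The core binding element of estrogen-related receptors, AAGGTCA, is known from promoters of energy metabolism. It was present on either strand in 10 of 88 matched promoters of the 105 citric acid cycle, respiratory chain and ATP synthase genes (11.4%) and in 3.88% of the 10665 promoters. The shorter AGGTCA, which the longer element contains, was in 22.7% of them, against 14.7% of all promoters. It was also in 22.5% of matched cell cycle promoters and 25.0% of matched fatty acid gene promoters. Among the genes that hold the longer element on the chromosomes used, again not all, Ogdh had the greatest rise. Its promoter is shown with that element (here as its complement) in capitals.
Ogdh: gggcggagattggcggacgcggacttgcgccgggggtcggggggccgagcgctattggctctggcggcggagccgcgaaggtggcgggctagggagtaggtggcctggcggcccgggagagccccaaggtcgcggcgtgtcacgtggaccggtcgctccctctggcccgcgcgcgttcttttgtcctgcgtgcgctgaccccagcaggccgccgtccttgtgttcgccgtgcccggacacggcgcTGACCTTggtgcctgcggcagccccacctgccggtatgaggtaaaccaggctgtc
It lies at chr11:6291920-6292219 on the plus strand of GRCm38.p6. Ndufb3 and Uqcrb, small subunits of complexes I and III, were called here at 1.19 ± 0.14 and 0.95 ± 0.16, but their levels depended on the preparation of the same RNA (1.05 ± 0.09 and 1.19 ± 0.14, log2, P1 batch over P21 batch). With the 6 P21 libraries of the P21 batch the values were 0.34 for Ndufb3 and -0.10 for Uqcrb, and Uqcrb was not called (adjusted p = 0.664). In tet-off hearts, whose ages also differ in preparation, Uqcrb was at -0.51 ± 0.18.

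Of the 13 protein genes of the mitochondrial genome, 6 rose and 0 fell (median 0.71). mt-Co1 had 27740.1, 21815 and 27060.3 CPM in P21, against 6693 to 16403 (median 10560.2) in P1 (1.27 ± 0.21), and mt-Cytb was not called (0.49 ± 0.33). Mitochondrial genes took 6.45% ± 0.786 of all counts in P21 (SD, n = 3) and 4.12% ± 1.48 in P1 (SD, n = 6). The count of called genes of this list is unsteady. It was 11 without the P1 library H, 3 without the P21 library A, 2 without library C, 3 with total counts, 3 with DESeq2 and 2 with FPKM.

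Genes of mitochondrial fusion, fission and transport were mostly higher, 16 of 19, with 1 lower (median 0.45). Mfn2, the gene whose human form the study overexpressed, had 917, 1192 and 1099 CPM in P21, against 614 to 711 (median 644) in P1 (0.72 ± 0.10). Its paralog Mfn1 had 165, 229 and 198 CPM in P21, against 110.0 to 130.4 (median 117) in P1 (0.73 ± 0.09). The fission process protein Mtfp1 (1.82 ± 0.10) and the protease Oma1, which cleaves Opa1 (1.29 ± 0.09), rose by more, and Opa1 by less (0.45 ± 0.10), with no call on total counts or FPKM. The fission adaptor Fis1 was not called (0.04 ± 0.10). Prohibitin 2 (Phb2), also a mitophagy receptor, fell (-0.47 ± 0.10), but was not called with the P21 libraries of the P21 batch.

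In the mitophagy list 14 of 26 genes rose and 3 fell (median 0.27). Pink1, the kinase that marks damaged mitochondria, had 442, 466 and 496 CPM in P21, against 151 to 195 (median 183) in P1 (1.39 ± 0.09). Park2, which encodes Parkin, the ubiquitin ligase recruited by PINK1, was low and not called, at 3.74, 4.32 and 3.39 CPM in P21 and 2.75 to 4.70 (median 4.35) in P1 (-0.09 ± 0.20, adjusted p = 0.72). The groups were separate for Pink1 and overlapped for Park2. Higher at P21 were Map1lc3a of the autophagosome membrane (1.17 ± 0.08) and the receptors Optn (1.11 ± 0.11) and Bnip3 (1.00 ± 0.10).

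Regulators of mitochondrial biogenesis gave few changes of 2-fold. Of 23 tested 12 rose and 3 fell (median 0.34). The retinoid receptor Rxrg had 55.3, 60.3 and 69.4 CPM in P21, against 1.75 to 6.76 (median 3.22) in P1 (4.14 ± 0.21). It was the 1 member of the list called at 2-fold or more. Ppargc1a had 98.3, 122 and 109 CPM in P21 and 97.3 to 116 (median 104) in P1 and was not called (0.06 ± 0.08), and its paralog Ppargc1b fell (-0.52 ± 0.13), but was not called with the P21 libraries of the P21 batch. The fatty acid sensor Ppara rose (0.63 ± 0.09). The mitochondrial transcription factor Tfam was called at 0.35 ± 0.08, but not with total counts, FPKM or the P21 libraries of the P21 batch. In the energy transfer and antioxidant list, 12 of 23 rose and 5 fell (median 0.37). Mitochondrial creatine kinase Ckmt2 had 1691, 1790.4 and 1909 CPM in P21, against 157 to 233 (median 167) in P1 (3.34 ± 0.12), and myoglobin (Mb) had 15647, 11436 and 14129 CPM in P21, against 3413 to 4182 (median 3907) in P1 (1.83 ± 0.12). The cytosolic muscle form Ckm was not called (0.17 ± 0.13), and the brain form Ckb fell (-0.95 ± 0.14).

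Genes that respond to thyroid hormone and glucocorticoids were higher. Of 16 tested 12 rose, 8 of them at least 2-fold, and 2 fell (median 0.95). The thyroid hormone receptor beta (Thrb) had 25.8, 29.4 and 32.3 CPM in P21, against 1.28 to 2.55 (median 1.70) in P1 (4.03 ± 0.15). The alpha receptor Thra had 113, 111 and 124 CPM in P21, against 164 to 186 (median 173) in P1 (-0.58 ± 0.08). Hr, a corepressor known in rodents as a thyroid hormone target, had 78.2, 66.9 and 76.3 CPM in P21, against 4.11 to 8.62 (median 6.16) in P1 (3.55 ± 0.13). On the glucocorticoid side, Hsd11b1, which regenerates active hormone (3.30 ± 0.38), Zbtb16 (2.50 ± 0.26), Klf9 (2.13 ± 0.14) and the receptor Nr3c1 (0.76 ± 0.09) rose, and Fkbp5 was not called (-0.30 ± 0.22).

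Cardiac transcription factors fell or were not called. Of 23 tested 0 rose and 15 fell (median -0.57). With the P21 libraries of the P21 batch 3 rose and 14 fell, and in tet-off hearts 2 rose and 11 fell. Hey2, a Notch effector of the compact ventricular wall, had 6.21, 4.92 and 3.39 CPM in P21, against 53.8 to 72.4 (median 58.6) in P1 (-3.60 ± 0.16). The ventricular factor Irx4 had 32.6, 32.2 and 33.0 CPM in P21, against 106 to 119 (median 115) in P1 (-1.80 ± 0.07). Hand1 was close to zero at P21, with 0.255, 0.0847 and 0 CPM, against 2.68 to 4.25 (median 3.72) in P1. Tbx20 (-1.25 ± 0.10), Gata4 (-0.72 ± 0.10) and Nkx2-5 (-0.93 ± 0.11) fell. Of RNA splicing regulators, 6 of 18 rose and 10 fell (median -0.38), and 0 of them reached 2-fold. Mbnl1 (0.88 ± 0.09), Rbfox1 (0.90 ± 0.14) and Celf2 (0.56 ± 0.08) rose. The titin splicing factor Rbm20, at 278, 412 and 361 CPM in P21 against 451 to 585 (median 556) in P1 (-0.63 ± 0.12), and Ptbp1 (-0.53 ± 0.08) fell.

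Cytosolic ribosomal protein genes were lower by small amounts. Of 44 tested 0 rose and 25 fell, 1 of them at least 2-fold (median -0.45). The count of calls was 8 without the P21 library B, 12 without library C and 38 with total counts, and the median ran from -0.66 to -0.34 across the scalings and left-out libraries tried for it. The member with the greatest fall was Rpl3, with 328, 254 and 223 CPM in P21, against 512 to 789 (median 607) in P1 (-1.21 ± 0.14). Its muscle-specific paralog Rpl3l, outside the list but among the 15 greatest rises of genes with separate groups and a mean of at least 10 CPM in the higher group, had 236, 208 and 294 CPM in P21, against 6.56 to 30.3 (median 8.84) in P1 (4.36 ± 0.31). The highest P1 value of Rpl3l was again in library H. Many processed pseudogenes resemble ribosomal protein genes, so their counts are less certain than those of single-copy genes.

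The extracellular matrix changed without a common direction. Of 33 genes 15 rose and 10 fell (median 0.10, -0.09 with total counts). The small proteoglycan decorin (Dcn) had 676, 551 and 547 CPM in P21, against 114 to 162 (median 129) in P1 (2.17 ± 0.11). Col8a1 (3.15 ± 0.14), lumican (Lum, 1.95 ± 0.20) and Col15a1 of the muscle basement membrane (1.57 ± 0.15) rose. Fbn2, the fibrillin of fetal microfibrils, had 18.4, 13.1 and 8.07 CPM in P21, against 143 to 208 (median 159) in P1 (-3.65 ± 0.20). Tenascin C (Tnc, -2.49 ± 0.37), fibronectin (Fn1, -1.40 ± 0.23) and periostin (Postn, -1.74 ± 0.20) fell. Of the main fibrillar collagens, Col3a1 was at 0.50 ± 0.17, with groups that overlap and no call on total counts, on FPKM or without library A, and Col1a1 at -0.58 ± 0.17.

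Markers of fibroblasts were higher in 10 of 14 cases and lower in 3. Their summed level ranged from 5977 to 6503 CPM in P21 and from 3088 to 5441 CPM in P1. Gelsolin (Gsn) had 1236, 1902 and 1524 CPM in P21, against 223 to 341 (median 276) in P1 (2.48 ± 0.14), and Pdgfra, a receptor that defines these cells, rose (1.28 ± 0.12), while Tcf21 fell (-0.56 ± 0.13). The part of fibroblast number in the matrix values was not tested. Endothelial markers rose in 9 of 16 and fell in 1, and their sum was 2859 to 3058 CPM in P21 and 2035 to 2362 CPM in P1. The water channel Aqp1 had 385, 373 and 436 CPM in P21, against 76.0 to 105 (median 95.3) in P1 (2.08 ± 0.11), and the tight junction protein Cldn5 fell (-1.01 ± 0.12). Of 15 mural and smooth muscle markers 9 rose and 4 fell, and their sum, 3831 to 4403 CPM in P21 and 3483 to 4118 CPM in P1, overlapped between the ages. Pericyte Rgs5 (1.65 ± 0.16) and smooth muscle Myh11 (1.49 ± 0.22) rose, while Mcam (-1.13 ± 0.11), the smooth muscle coactivator Myocd (-0.88 ± 0.11), pericyte Cspg4 (-0.62 ± 0.12) and smooth muscle actin Acta2 (-0.62 ± 0.14) fell. Among 20 hypoxia and angiogenesis genes 13 rose and 3 fell (median 0.46). The oxygen sensor Egln3 (1.66 ± 0.11) rose. The hypoxia-inducible factor genes went in both directions. Epas1 rose, with 400.0, 527 and 502 CPM in P21 against 136 to 200.2 (median 167) in P1, while Hif1a (-0.78 ± 0.08) and Hif3a (-3.10 ± 0.20) fell. Vegfa was not called (0.07 ± 0.09).

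Macrophage markers were higher at P21 without exception in the list, 19 of 19 and each at least 2-fold (median 2.04). Their summed level was 557 to 774 CPM in P21 and 164 to 190.4 CPM in P1. Lysozyme (Lyz2) had 91.0, 54.8 and 74.0 CPM in P21, against 9.43 to 14.1 (median 10.6) in P1 (2.74 ± 0.15). The complement subunit C1qa had 95.8, 62.5 and 82.1 CPM in P21, against 12.3 to 16.1 (median 13.6) in P1 (2.54 ± 0.13). Markers of resident macrophages, Timd4 (3.66 ± 0.34), Folr2 (2.70 ± 0.18) and Lyve1 (1.01 ± 0.15), rose, as did Ccr2 of monocyte-derived cells (1.37 ± 0.47, not called without library A). The receptor Csf1r, on which these cells depend, had 105, 79.7 and 105 CPM in P21, against 19.6 to 24.5 (median 22.4) in P1, and was called.

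Antigen presentation and interferon genes rose as well, 22 of 23 with 18 at least 2-fold and 0 lower (median 1.29). The class II chain H2-Ab1 had 9.01, 9.07 and 8.30 CPM in P21, against 0.554 to 1.27 (median 0.690) in P1 (3.47 ± 0.21). The invariant chain Cd74 (2.92 ± 0.17), the class I light chain B2m (1.06 ± 0.10) and the interferon-induced Ifit3 (2.67 ± 0.38) rose. The summed macrophage markers were also higher at P21, and the part of macrophages in the values of these genes was not tested. Of the lymphocyte markers 1 passed the filter on low counts, Cd4. The sum of that list was 6.90 to 27.1 CPM in P21 and 1.66 to 2.79 CPM in P1.

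Atrial markers did not separate the ages. Their sum was 1770.3, 10165 and 1667 CPM in the P21 libraries, against 1399 to 4098 CPM in P1. Of 17 tested 8 rose and 2 fell, but 1 was called higher once library B was left out, and 2 with the P21 libraries of the P21 batch. The atrial light chain Myl7 had 215, 1723 and 197 CPM in P21 and 197 to 913 (median 363) in P1 and was not called (0.63 ± 0.61, adjusted p = 0.394). Without library B the value of Myl7 was -1.15 (adjusted p = 0.107). The natriuretic peptide Nppa, which is atrial in the adult and ventricular in the fetus, had 631, 4927 and 574 CPM in P21 and 184 to 1096 (median 345) in P1. Its call (1.99 ± 0.59, adjusted p = 0.008) came with groups that overlap, and its value without library B was 0.23 (adjusted p = 0.737). Sarcolipin (Sln), an atrial calcium pump inhibitor, and Mybphl behaved alike, with 53.0, 277 and 35.6 and 18.5, 199 and 24.9 CPM in P21, against 5.80 to 46.6 (median 17.0) and 2.99 to 27.5 (median 7.68) in P1, and neither was called without library B. Gm1078, a predicted gene among the same 15 greatest rises, had its highest value in the same library, with 25.8, 192 and 26.9 CPM in P21, against 1.71 to 6.64 (median 3.08) in P1 (4.58 ± 0.58, and 2.95 without library B). In the natriuretic and stress list 8 of 19 rose and 5 fell (median -0.02), and 4 rose without library B. Nppb of ventricular stress had 245, 318 and 141 CPM in P21, against 55.4 to 182 (median 87.8) in P1 (1.23 ± 0.29), also with overlap. With a score of the atrial markers as a term in the fit, 7542 genes were called in place of 7794.

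**Figure D4:**
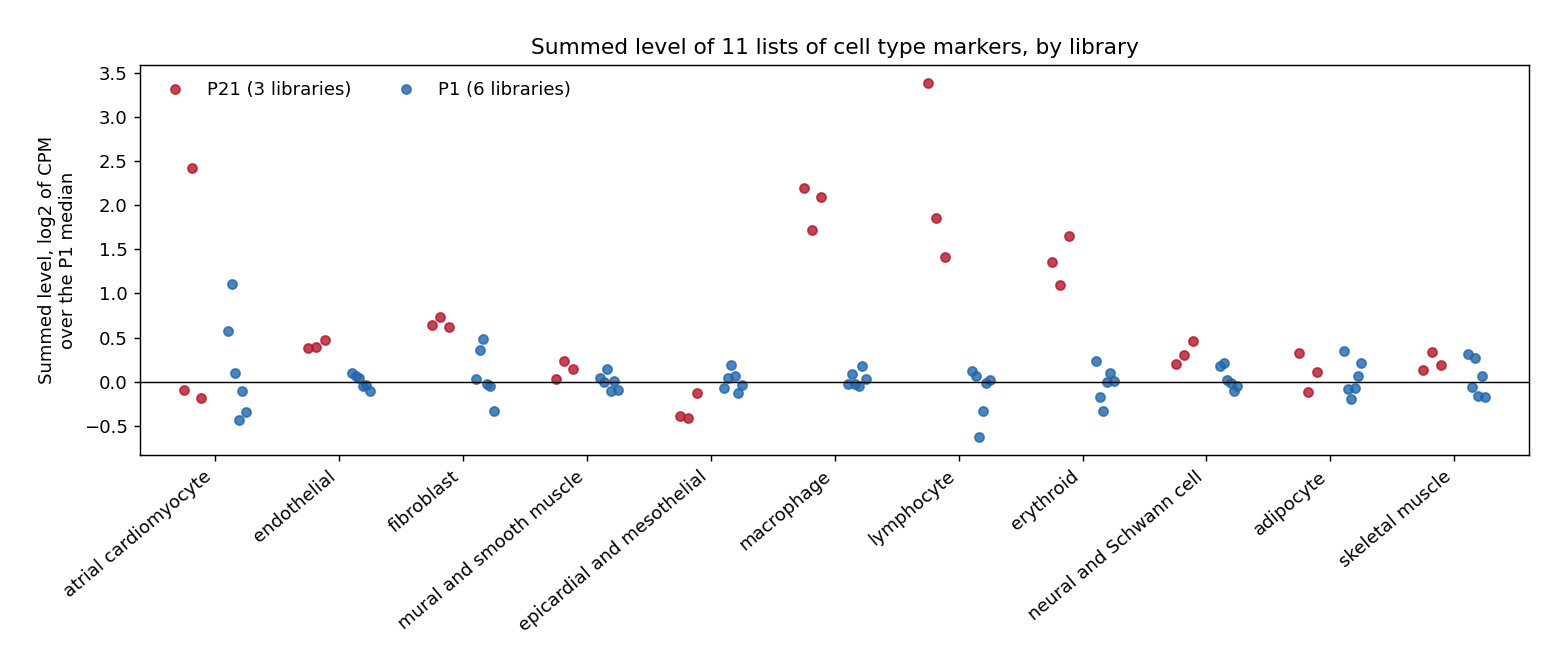
Summed level of 11 lists of cell type markers in each of 3 P21 (red, left) and 6 P1 (blue, right) libraries, as log2 of the summed CPM over the P1 median. Macrophage, lymphocyte, erythroid, fibroblast and endothelial sums were higher in each P21 library than in any P1 library, and the single high P21 point of the atrial list is library B (10165 CPM).

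Of 5 erythroid markers tested 3 rose, among them the heme synthesis enzyme Alas2 (1.46 ± 0.12), 1 fell and 1 was not called. The one that fell was the erythropoietin receptor Epor (-0.72 ± 0.30, adjusted p = 0.0498), with groups that overlap, and its call was lost in 10 of 19 alternatives, among them leaving out P21 library B (-0.31) or any of P1 libraries D, E, G and I (-0.75 to -0.63). The anion exchanger Slc4a1 was not called (0.22 ± 0.24). The sum of the list was 122 to 178 CPM in P21 and 45.0 to 66.5 CPM in P1. Globin genes held no usable counts, and the FPKM table listed Hba-a1 at 19193 to 27442 in P21 and 11945 to 19882 in P1. The Hba-a1 groups overlapped, as did those of Hba-a2 and Hbb-b2. Those of Hbb-b1 were separate, at 1725 to 2593 FPKM in P21 and 863 to 1369 in P1. Hba-x and Hbb-y were at 0 in P21 and low in P1 (1.08 to 3.33 and 0.707 to 1.60 FPKM). The globin values were not tested. The part of blood in other results was not tested. Circadian clock genes rose in 11 of 18 cases and fell in 2 (median 0.48). The output factors Tef (1.31 ± 0.08) and Dbp (1.05 ± 0.19) rose, and Npas2 fell (-1.84 ± 0.14). The hour of collection is not given, and its part was not tested.

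The greatest rises and falls over all genes, among those with separate groups and a mean of at least 10 CPM in the higher group, included members of no list. The lipid hydrolase Ces1d had 24.7, 63.9 and 42.0 CPM in P21, against 0.374 to 0.979 (median 0.659) in P1 (5.97 ± 0.31). The prostaglandin F receptor Ptgfr (5.11 ± 0.36, and 4.42 without library B), the ADP-ribosyltransferase Art1 (4.54 ± 0.25), the tubulin Tuba8 (4.47 ± 0.24), the alpha 1A adrenergic receptor Adra1a (4.32 ± 0.26) and the microtubule protein tau (Mapt, 4.18 ± 0.21) rose. Mapt had 76.9, 103 and 94.6 CPM in P21, against 3.26 to 10.4 (median 3.99) in P1. The adrenergic receptor had 8.16, 12.7 and 18.2 CPM in P21, against 0.227 to 0.979 (median 0.603) in P1. Folds against such low levels are uncertain beyond the standard error. Across the alternatives run, Ces1d ranged from 3.98 to 6.26 and Adra1a from 1.76 to 4.58.

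On the falling side, the olfactory receptor gene Olfr609 (chr7:103491917-103492876) had 0.170, 0 and 0 CPM in P21, against 6.06 to 14.0 (median 10.2) in P1, and no fold is given against so few reads. Olfactory receptor genes resemble each other in sequence, so its count is uncertain. The X-linked Bex1 had 3.15, 1.78 and 1.17 CPM in P21, against 51.7 to 63.0 (median 58.2) in P1 (-4.77 ± 0.19), and its relative Bex4 fell too (-4.67 ± 0.25). The transcriptional coregulator Cited1 had 3.66, 2.29 and 1.29 CPM in P21, against 55.9 to 77.3 (median 66.6) in P1 (-4.74 ± 0.21). The lysophosphatidic acid receptor Lpar3 (-4.40 ± 0.24), the vasohibin Vash2 (-4.39 ± 0.15), the growth factor Bmp7 (-4.25 ± 0.20) and the collagen-modifying P4ha3 (-3.94 ± 0.23) fell.

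Single libraries stood apart within both groups. The P1 library H was the highest of the 6 for 446 of the 1406 genes that rose at least 2-fold (31.7%), and for 17.6% of all genes tested. It also had the largest mitochondrial share of the P1 group, 6.68% of counts. Without it 7646 genes were called. The P21 library A was the highest of the 3 for 592 of the 1147 genes that fell at least 2-fold (51.6%), and for 37.0% of all genes. Without it 7096 genes were called, and the median of the cell cycle list was -2.60. The cause was not tested.

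The same RNA of the 3 P21 hearts in both preparations shows how much of a difference preparation alone gives. With the heart as a replicate block, 1835 of 12994 genes (14.1%) were called between the batches, 960 higher and 875 lower in the P1 batch. That count was 93 without heart A, 562 without heart B and 4084 without heart C. The numbers identify the same RNA, so the samples are paired, and without the replicate block 2 genes were called. Of 33 genes with at least an 8-fold fall with age and 20 CPM in the higher group, 28 were higher in the P1 batch (median 0.25, log2) and 2 were called between the batches. Of 49 genes with an 8-fold rise, 16 were higher in the P1 batch (median -0.05) and 11 were called. Over all 12994 genes 49.7% were higher in the P1 batch. Besides Tnni1, H19 showed this, with 246, 140 and 123 CPM of the total in the P1 batch and 142, 101 and 100.3 in the P21 batch. When the 6 P21 libraries of the P21 batch took the place of those of the P1 batch, 8373 genes were called, 6479 of them shared with the 7794.

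Tet-off control hearts of the same ages share no heart with the nontransgenic groups. Their 5 P21 and 5 P1 libraries were prepared in separate batches, so age and batch cannot be told apart there. Of 13198 genes 3839 (29.1%) were higher and 3755 (28.5%) lower at P21. Of the 7604 genes called in nontransgenic hearts and tested in tet-off hearts, 7195 (94.6%) had the same sign. Called in both with the same sign were 5816 genes, which is 74.6% of the nontransgenic and 76.6% of the tet-off calls, and 39 were called with opposite signs.

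In tet-off hearts 48 of 49 cell cycle genes were called lower (median -2.50), 18 of 18 macrophage markers were called higher (median 2.04) and 33 of 36 complex I genes were called higher (median 0.62). For complexes II to IV 13 rose and 4 fell, and for the mitochondrially encoded genes 1 rose. Tnni1 changed by -6.61 ± 0.95, Igf2 by -3.30 ± 0.16 and Thrb by 3.63 ± 0.21 in tet-off hearts. Values that lay further apart were those of Zbtb16 (2.50 ± 0.26 in nontransgenic and 5.09 ± 0.13 in tet-off hearts) and of Cd36 (0.93 ± 0.12 in nontransgenic and 0.14 ± 0.13 in tet-off hearts). Hand2, which fell in nontransgenic hearts (-1.14 ± 0.13), was not called in tet-off hearts (-0.17 ± 0.12). The difference between the lines was not tested.

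**Figure D5:**
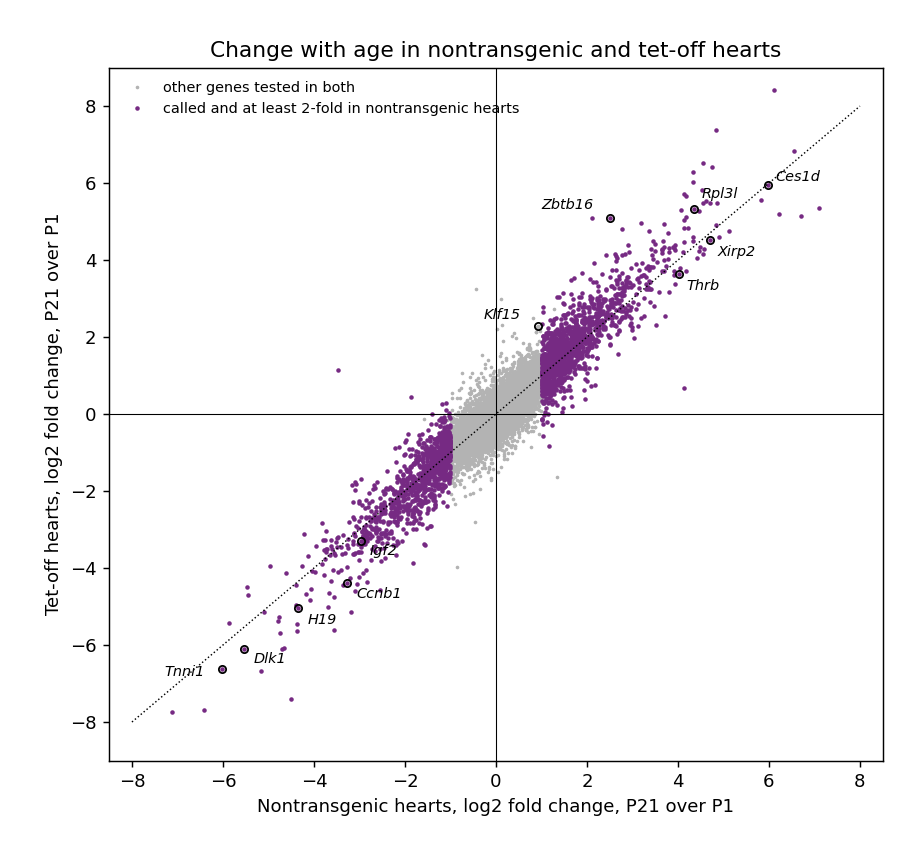
Log2 fold change of P21 over P1 for each gene tested in both lines, in nontransgenic hearts of the P1 batch (horizontal axis) and in tet-off hearts (vertical axis). Purple points were called and at least 2-fold in nontransgenic hearts, the dotted line marks equal values, and 94.6% of the genes called in nontransgenic hearts had the same sign in both.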

How the data were processed

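RNA of mouse hearts was sequenced as non-strand-specific single-end libraries from oligo(dT)-selected RNA, per the labels' protocols. Reads were aligned to mm10 with TopHat2 2.0.10 and Bowtie2, and the deposited gene counts came from HTSeq, per the submitters' processing notes. FPKM values were deposited by the authors as well, and Cufflinks 2.1 stands in the submitters' processing notes. The deposited annotation gives other values, the positions of exons, which served for coordinates and for counts per kilobase. The notes name DESeq and edgeR too, without saying for which table.

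The deposited counts of the 13 nontransgenic libraries of the P1 batch (3 P21, 6 P1 and 4 of 5 weeks) were fitted by the quasi-likelihood test of edgeR 4.0.16 in R 4.3.3, with TMM scaling, edgeR's default filter on low counts and Benjamini-Hochberg adjustment over the 13534 genes tested, of 23429 in the table. The third age adds to the estimate of the spread. Alternatives used DESeq2 1.42.0, and limma 3.58.1 on log2(FPKM + 1) for genes with a mean of at least 1 FPKM in a group. Tests were tried on simulated counts first. The P21 libraries of both preparations were paired by heart, since the series' design text says that the same total RNA was used. Without strand, reads of overlapping antisense genes cannot be told apart. Counts are reads without molecular identifiers. Replicates within each group differed by more than sampling noise.

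Genes and lists were chosen with earlier results of these data known. Any list or pair member may be named, with preference for the 4 greatest rises and falls of a list, and, over the whole table, the 15 called genes furthest up and the 15 furthest down, given separate groups and a mean of 10 CPM or more in the higher one. List symbols that the table lacks were left out. Values of a few list members are not reported here, though the list counts include them.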

Additional observations from a re-analysis of the deposited data

Results flagged for a closer look

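In 29 of 259 groups of P1 values examined, 1 of the 6 libraries lay further from the rest than Dixon's test for a single outlying value allows, and chance alone gives about 5% of such groups. P1 library H was the outlying one in 15 of the 29. It was the highest P1 library, in CPM, for Art1 (17.0, median 6.26), Ckmt2 (233, median 167), Kcnv2 (0.392, median 0), Mapt (10.4, median 3.99), Rgs5 (132, median 80.5), Rpl3l (30.3, median 8.84), Tcap (346, median 238), Tnni3 (3359.8, median 2986), Tnnt2 (14915, median 11494), Tuba8 (19.6, median 7.19), Xirp2 (39.5, median 14.0) and mt-Cytb (5132, median 2334). It was the lowest for Mest (293, median 419) and Vash2 (35.1, median 48.7). Its share of Thra in the Thra and Thrb pair was 99.4%, with a median of 99.5%.

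Library D stood apart, in CPM, as high in Bnip3 (27.0), Cd4 (0.815, median 0.305) and Npas2 (18.6, median 15.9) and as low in Hk2 (119, median 154). Library E stood apart, in CPM, as high in Gm1078 (6.64, median 3.08), Igfbp2 (6.33, median 2.03) and Mybphl (27.5, median 7.68). Library F stood apart, in CPM, as low in Cdc25c (2.66, median 4.78) and Park2 (2.75, median 4.35). Library G stood apart, in CPM, as low in Ptbp1 (123, median 134). Library I stood apart, in CPM, as high in Igf2bp1 (27.7, median 21.1) and as low in Zim1 (6.23, median 8.40). Library E also had the highest share of Myl4 in the Myl4 and Myl3 pair (14.0%, median 5.02%) and the highest share of counts on the ribosomal repeat Rn45s (14.1%, median 5.50%). Groups of 3, such as P21, are too small for this test.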

How the results depend on the processing

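The number of genes called between P21 and P1, 7794, stayed within 1.5 times of that value under the other scalings, filters, tools, sample sets and batch terms tried, and was 7068 to 7799 when 1 library was left out. Of those called and changed at least 2-fold there were 2553, with 2510 to 2609 when 1 library was left out, 1400 with a mean of at least 10 CPM required (fewer genes tested) and 1520 with limma on FPKM, where the cause was not tested. In tet-off hearts 7594 genes were called, and 7135 to 7581 when 1 library was left out. Between preparations of the same RNA, pairing by heart mattered. The replicate block gave 1835 called genes, and no replicate block gave 2. DESeq2 with the heart as a block gave 445, limma on FPKM with the heart as a block gave 5, and leaving out 1 heart gave 93 to 4084, so that count is not a stable one and the cause was not tested. No replicate block was possible between P21 and P1, which share no title number.

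Of 235 named genes, 195 were called and kept direction and call under each alternative run. Another 12 were called under none of them, and the sign of 11 of these varied. 3 were reversed. Uqcrb was at -0.10 and Sgce at -0.36 with the P21 libraries of the P21 batch, and Myl7 at -0.86 with the atrial marker score as a term. The atrial genes Mybphl (1.02), Nppa (0.23) and Sln (1.09) lost their call without P21 library B. Without it Myl7 was at -1.15 and Myl4 at -0.56, both uncalled with the opposite sign. Total counts moved fatty acid genes called lower to 13 and glycolysis genes called lower to 12. With FPKM, 13 genes of complexes II to IV and 5 of ATP synthase were called higher. Depth of 7147271 to 12522780 counts per library limits genes near 1 CPM to about 10 reads, and 3 P21 hearts limit the estimate of spread.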

Other observations

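Some genes were measured differently by the deposited counts and FPKM values. Cpt1b, the muscle carnitine palmitoyltransferase, made up little of the count table, so the share of Cpt1a in the pair was 5.85% in P21 and 11.0% in P1 by FPKM, but 86.3% in P21 and 92.0% in P1 by counts per kilobase. The direction was the same by both. Markers of nerve and Schwann cells were called higher in 8 of 9 cases tested and lower in 1, and their sum was 51.9 to 62.1 CPM in P21 and 41.9 to 52.3 CPM in P1. Epicardial markers were called lower in 4 of 12 cases and higher in 1, with sums of 99.9 to 121 CPM in P21 and 122 to 151 CPM in P1. Of 8 adipocyte markers tested 3 were called higher and 1 lower (median 1.83). That median was 0.74 without library A. With the P21 libraries of the P21 batch it was -0.12, and 1 of 3 tested was called higher. Of 7 skeletal muscle markers tested 1 was called higher and 2 lower (median 0.17). The sums of both lists overlapped between the ages.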
